A study of Mus musculus with 12 samples.

Results

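The cytosolic ribosomal proteins are the protein components of the cytoplasmic ribosome. Their genes were taken as those whose platform symbol begins with Rpl or Rps and a number, together with Rpsa and the stalk genes Rplp0, Rplp1 and Rplp2, without pseudogenes and without the Rps6k kinases. This gave 68 genes among 22180 gene symbols that have a probe set of their own, namely 32 genes of the large subunit, 23 of the small subunit, 3 of the stalk, 9 paralogs and 1 retrogene. Each gene is given by 1 probe set, the one with the highest mean over all arrays, although 25 of the 68 had several and the 68 genes had 109 probe sets in all. RefSeq lists 88 such symbols, and 22 of them are not among the members, 14 of these because they appear only on probe sets shared with another symbol. Rps27a, whose product is made as a fusion with ubiquitin, is one of the 22 and has no value here. Fau, which encodes a ribosomal protein under another symbol, was examined beside them.

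The cells were mouse embryonic stem cells (mESCs) of the male line E14.wt, on the 129P2/OlaHsd background, and 12 Affymetrix Mouse Gene 2.0 ST arrays held 4 groups of 3. In experiment A the groups were shcontrol_A and shMsl1_A, and in experiment B they were shcontrol_B and shNsl1_B. All cells carried a lentiviral pLKO.1 vector and were selected with puromycin, the controls with the non-target shRNA SHC002 and each knockdown (KD) with a single shRNA clone. They had been grown on CD1 feeder cells and then for a passage without them. The gene that the study calls Nsl1 is Kansl1, the scaffold of the NSL complex, while Msl1 is the scaffold of the MSL complex, and both complexes hold the histone acetyltransferase Mof. Values are log2 signals, so a difference of 1 is a 2-fold difference, and the median of an array lay between 5.58 and 5.78. Independent biological replicas are named in the methods but separate cultures are not in the labels, and the p-values therefore cover array-to-array spread, which may be technical.

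The small subunit decodes the mRNA and the large subunit forms the peptide bond, and each is an assembly of ribosomal RNA with ribosomal proteins made in near equal number. The stalk, formed by Rplp0 with Rplp1 and Rplp2, recruits the translation factors. Ribosomal protein mRNAs belong to the TOP mRNAs, which start with a cytosine followed by a run of pyrimidines and whose translation depends on mTOR and Larp1. When ribosome assembly is disturbed, Rpl5 and Rpl11 bind Mdm2 with the 5S ribosomal RNA and p53 rises. ES cells divide fast and make many ribosomes.

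Of the 68 genes, 53 matched an entry in the RefSeq promoter table (build GRCm38.p6). Within 15 bases of an annotated start, 27 of these 53 (50.9%) held CTTTC or CTTTT or CTTCC or CTTCT on the strand of the gene, against 18.7% of 27025 genes in the table and 21.0% of 62 genes of mitochondrial ribosomal proteins. The windows of 30 bases below, 15 before and 15 after the start, are shown for members called between shcontrol_A and shcontrol_B and for Rps27, Rps6 and Rps19. No window is shown for Rps29, also called there, or for Rps14. The capitals mark each pyrimidine run that holds such a match. At the start shown, the first 4 carry one and the others do not. The count of 27 took any annotated start of a gene.
Rpl38, chr11:114668565-114668594, plus strand: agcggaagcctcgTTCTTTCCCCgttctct
Rpl27a, chr7:109519180-109519209, plus strand: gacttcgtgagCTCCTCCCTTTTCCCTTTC
Rps27, chr3:90213634-90213663, minus strand: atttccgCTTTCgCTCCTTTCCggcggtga
Rps6, chr4:86857353-86857382, minus strand: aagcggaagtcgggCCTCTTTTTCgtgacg
Rps3, chr7:99483695-99483724, minus strand: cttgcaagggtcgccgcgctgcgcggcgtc
Rps13, chr7:116334176-116334205, minus strand: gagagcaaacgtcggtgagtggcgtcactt
Rpl10l, chr12:66284387-66284416, minus strand: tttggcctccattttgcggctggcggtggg
Rps19, chr7:24884577-24884606, plus strand, the most upstream of 3 starts: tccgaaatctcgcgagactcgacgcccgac

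In the whole window of 300 bases, the ETS motif CCGGAAG was found on the gene's strand in 28.3% of the 53 members and on the other strand in 17.0%, against 5.40% of all genes on either strand taken apart. For the mitochondrial ribosomal proteins the shares were 19.4% and 17.7%. The YY1 motif AAGATGG was found in 7.55% and 5.66% of the members on the 2 strands (mitochondrial ribosomal proteins, 14.5% and 8.06%, and all genes, 4.17% and 3.26%). The SP1 motif GGGCGG was found in 26.4% and 34.0% (mitochondrial ribosomal proteins, 25.8% and 37.1%, and all genes, 25.6% and 23.6%). These matches describe letters in the window and not bound sites. The 27 members with the pyrimidine run and the 26 without it had median log2 changes of 0.08 and 0.04 after Nsl1 KD. Between the control groups their medians were -0.16 and -0.24.

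A pair of facts about the measurements touches every result. The first concerns the labels of experiment A. The log2 signal of Msl1 itself (probe set 17256162) was 8.56, 6.90 and 8.62 in the group labelled shcontrol_A but 6.77, 9.18 and 7.64 in the group labelled shMsl1_A, so the groups overlapped. A signal table of the study itself heads the array labelled shcontrol_A 2 as an Msl1 knockdown and the one labelled shMsl1_A 2 as a control, and under those headings all 3 knockdown arrays were below all 3 controls, with a log2 change of -1.69 (adjusted p = 1.00 in limma, smallest p that permutations of 3 against 3 can give, 0.1). Results of experiment A are therefore given as labelled, without these 2 arrays, and with the groups as the study heads its table. In experiment B the labels and the study's table matched. Kansl1 (probe set 17270621) had signals of 9.14, 9.36 and 9.52 in shcontrol_B and of 8.47, 8.92 and 9.30 in shNsl1_B, a log2 change of -0.45 whose 95% interval, with an upper end of 0.11, includes 0. It was lower in each same-numbered pair. With the replicate number as a block, 1 of 4 knockdown target and complex genes was lower and 1 higher at an unadjusted p under 0.05 in limma. Of all probe sets 7.96% were lower and 6.91% higher at that level. Without the block 0 of the 4 were lower (all probe sets, 3.43%) and 1 was higher (all probe sets, 1.83%). The changes of these 4 genes ran from -0.45, the change of Kansl1, to 0.31. The paper tested the knockdown by RT-qPCR and Western blot, and counts Nsl1 itself among its downregulated genes.

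The second concerns the probe sets. Ribosomal protein genes have many processed copies in the genome. The order of the probe set identifiers follows the chromosomes, and among 10 neighbours on each side 18 of the 68 chosen probe sets sat with genes of another chromosome than their own gene, while 46 sat with their own and 4 were unclear. Outside the members 98.9% of 2322 probe sets sat with their own chromosome. The 18 had mean log2 signals of 10.42 to 13.27 (median 12.18), where the highest signal of any probe set was 13.82, and the 46 had means of 4.94 to 13.12. Rps19, which is often mutated in Diamond-Blackfan anaemia, is given by such a probe set (17299847), and another (17299924) had identical signals on every array. Changes of such genes may include signal of other copies, which was not tested. At the other end, the probe sets of Rpl3l, Rpl32l, Rpl11 and Rps16 had mean signals of 4.94, 5.26, 5.71 and 5.86, close to or below the array medians, and whether they lay above background was not tested.

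Across the 12 arrays most ribosomal protein genes were high or low on the same arrays, and these arrays were not those of a single group. The median deviation of the 68 genes from their own 12-array mean was 0.13, 0.14 and 0.14 on the arrays labelled shcontrol_A and 0.12, -0.15 and -0.09 on those labelled shMsl1_A. In experiment B it was 0.03, -0.12 and -0.13 for shcontrol_B and 0.19, -0.08 and -0.25 for shNsl1_B. All 4 groups except shcontrol_A thus held both higher and lower arrays. On the array labelled shNsl1_B 1, 53 of the 68 genes (77.9%) were above all other 5 arrays of the experiment, against 19.8% of all probe sets. On the array labelled shNsl1_B 3, 41 of 68 (60.3%) were below the other 5, against 20.7% of all probe sets. On the arrays labelled shMsl1_A 2 and 3, which the study's table heads as 1 control and 1 knockdown of the same replica, 47 of 68 (69.1%) were below the other 4 arrays of experiment A, against 22.0%. These arrays were chosen after their values were seen, so the counts are descriptions.

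**Figure D1:**
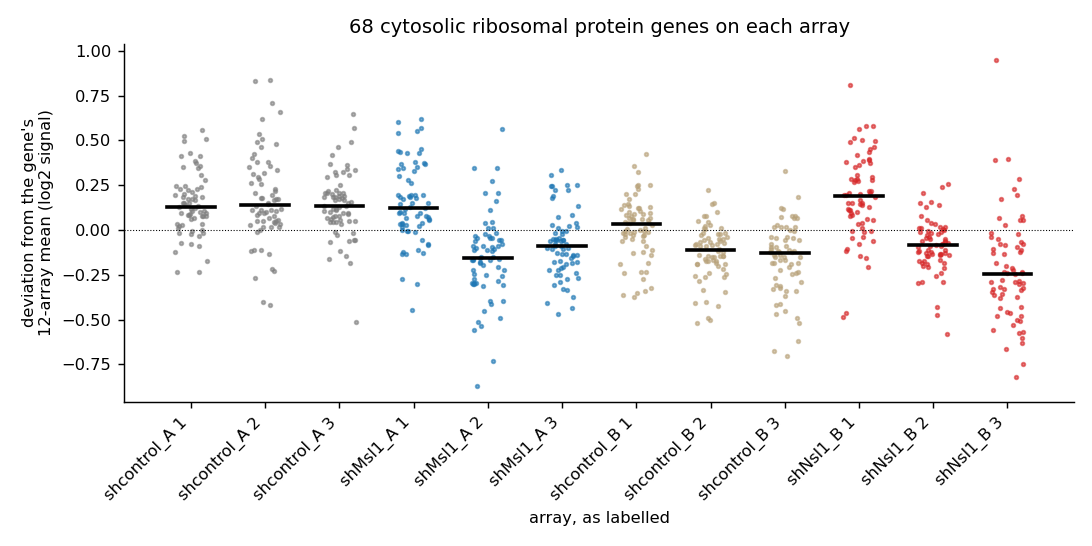
Deviation of each of the 68 genes from its own mean over the 12 arrays (points, log2 signal) for every array as labelled, with the median as a black line. The medians run from -0.25 on shNsl1_B 3 to 0.19 on shNsl1_B 1, and the arrays labelled shMsl1_A 2 and 3 lie below the other 4 of experiment A.

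The roles were alike in this. On the array labelled shNsl1_B 1 the median deviation was 0.15 for the large subunit, 0.12 for the small subunit, 0.28 for the stalk and 0.27 for the paralogs, and on shNsl1_B 3 it was -0.21, -0.29, -0.23 and -0.36. The 18 genes whose probe set sat among another chromosome's had 0.16 and -0.23 on these arrays and the 46 others 0.19 and -0.28. Marker genes of other cells differed on the same arrays. Of 40 fibroblast markers 38 were measured, and their mean log2 signal was 6.71 to 6.97 on the arrays labelled shcontrol_A, 6.79 to 7.72 on shMsl1_A, 7.04 to 7.73 on shcontrol_B and 6.97 to 7.95 on shNsl1_B. All 6 arrays with a mean of 7.50 or more were those on which the ribosomal protein median was below 0. Col1a1, a collagen of fibroblasts, had a signal of 7.28 to 8.22 on the other 6 arrays and of 9.38 to 9.93 on these. All 15 ES cell markers were measured, and their mean was 9.57 to 9.91 on the same 6 arrays and 10.11 to 10.28 on the rest. In bulk RNA fewer cells of a type and less RNA per cell cannot be told apart, and the part of these markers in the ribosomal protein values was not tested.

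**Figure D2:**
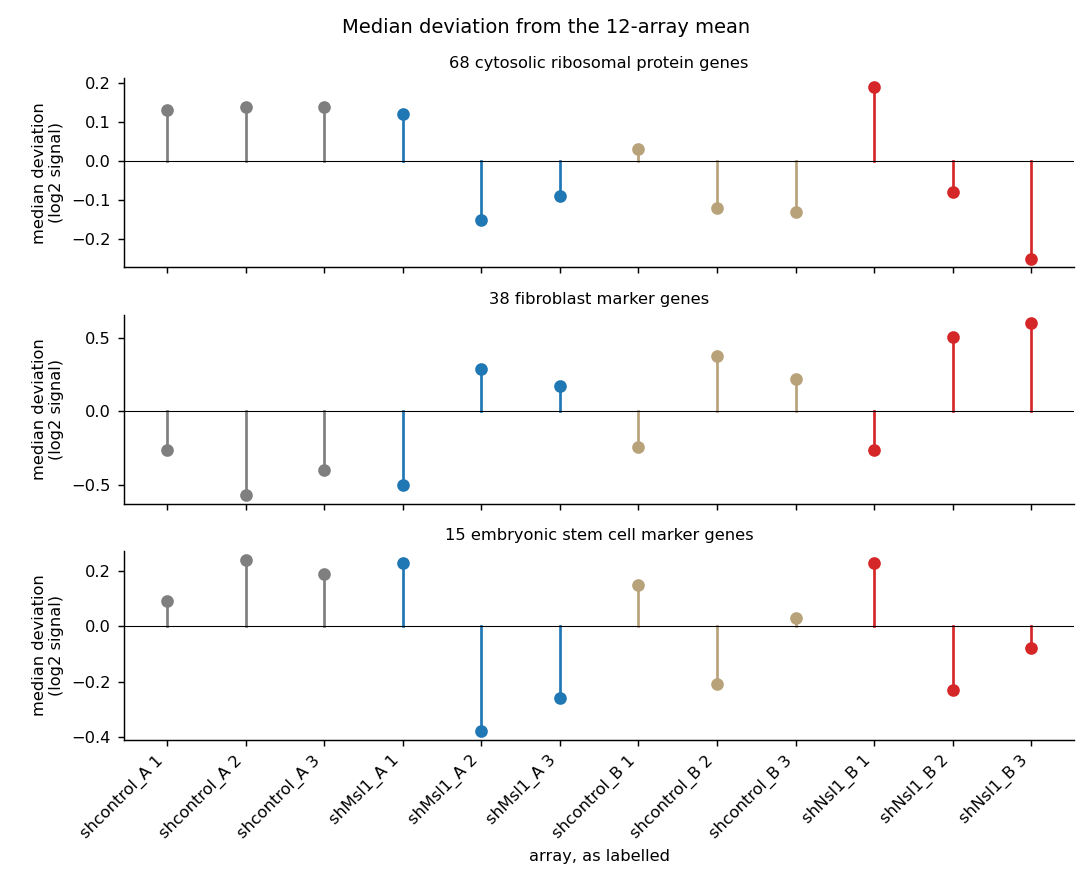
Median deviation from the 12-array mean (log2 signal) on each array as labelled for the 68 ribosomal protein genes, 38 fibroblast markers and 15 ES cell markers. The 6 arrays with ribosomal protein medians below 0 are those with fibroblast medians above 0.

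The first comparison asked whether ribosomal protein mRNAs change when Nsl1 is depleted. No member was called and the changes were small. Of the 68 genes, 49 were higher and 19 lower in shNsl1_B than in shcontrol_B, with a median log2 change of 0.04 beside 0.01 over all 41345 probe sets, and the changes ran from -0.21 to 0.45. No gene passed an adjusted p of 0.05 in limma (smallest adjusted p = 0.652), as for 0% of all probe sets. At an unadjusted p under 0.05, 2 members were higher and 0 lower, against 1.83% of all probe sets higher, which is 2.94% of the members. The 95% interval of the change lay within -1 and 1 for 64 of the 68 genes and within -0.5 and 0.5 for 43, so a change by 2-fold was outside the interval for most of them. With the replicate number as a block, which the arrays of experiment B warrant, 58 intervals lay within -0.5 and 0.5, 4 members were higher at an unadjusted p under 0.05 (5.88%, against 6.91% of all probe sets), and the smallest adjusted p was 0.143.

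The median hides opposite replicas. Array by array, the 68 genes differed between knockdown and control by a median of 0.16 in replicate 1, where 61 were higher, by 0.01 in replicate 2, where 39 were higher, and by -0.07 in replicate 3, where 20 were higher. Without the array labelled shNsl1_B 1 the median change became -0.09.

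Rps14 and Rps27, both of the small subunit, showed the smallest p after Nsl1 KD. Rps14 (probe set 17350970) had log2 signals of 7.40, 7.34 and 7.42 in shcontrol_B and of 7.84, 7.63 and 7.78 in shNsl1_B. All 3 knockdown arrays were above all 3 controls, and the change was 0.36 ± 0.09 (SE; limma, adjusted p = 0.652), or 128.5% of control. Rps27 (17407240) had signals of 8.33, 7.77 and 8.15 in the controls and of 8.66, 8.35 and 8.59 in the knockdown, a change of 0.45 ± 0.17 (SE; adjusted p = 0.902). The groups again did not overlap. FCROS, rewritten here after the rank statistic that the study used, called Rps27 higher and no other member. Over all 41345 probe sets it called 766 higher and 1389 lower, while the paper counts fewer genes in both directions. Rps20 (17422988) had signals of 7.45, 7.49 and 7.66 in the controls and of 7.70, 7.85 and 7.70 in the knockdown (change 0.22, adjusted p = 1.00). These were the 3 members with all knockdown arrays above all controls (4.41%, against 4.66% of all probe sets). The block added Rpl32l (0.41, adjusted p = 0.188) and the retrogene Rps23rg1 (0.23, adjusted p = 0.311) at an unadjusted p under 0.05.

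The genes picked for their role were not called after Nsl1 KD. Their intervals below are from the fit without the replicate block. Over the 68 genes the median distance from a change to the end of its interval was 0.39 there and 0.24 with the block. Rps19 had signals of 11.690, 11.420 and 11.376 in the controls and of 12.002, 11.428 and 11.277 in the knockdown. The groups overlapped, and the change of 0.07 had a 95% interval of -0.44 to 0.59. Rpl5 and Rpl11, which carry the p53 signal, had log2 changes of 0.15 (95% interval -0.18 to 0.48) and 0.14 (-0.15 to 0.42), the latter on a probe set at the level of the array medians. Rps6, the mTOR-dependent phosphoprotein of the small subunit, had the narrowest spread of all members, with every signal between 13.19 and 13.31 on 12 arrays and a change of -0.04 (-0.23 to 0.15). Its probe set is the brightest of the members and sits among those of another chromosome, and the part of either in its narrow spread was not tested. Rpsa, also known as the laminin receptor, had a change of 0.00 (-0.50 to 0.50). The stalk genes Rplp0, Rplp1 and Rplp2 had changes of 0.00, 0.07 and 0.15, and none passed the test.

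By role the median change after Nsl1 KD was 0.02 for the large subunit (21 of 32 higher), 0.06 for the small subunit (16 of 23 higher), 0.07 for the stalk (3 of 3 higher) and 0.04 for the paralogs (8 of 9 higher). Among the paralogs, Rpl10l and Rpl39l, copies used in the testis, had changes of 0.19 and 0.15, and Rpl3l, the muscle form of Rpl3, by 0.06. Rpl22l1, Rpl6l, Rpl7l1 and Rps27l had changes of 0.03, 0.04, 0.04 and 0.00, and Rps4l by -0.19. The widest 95% intervals among the paralogs were those of Rpl10l and Rps4l, the latter from -1.03 to 0.65.

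Genes of the mitochondrial ribosome lay mostly on the lower side after Nsl1 KD, and other genes that make or steer ribosomes lay near 0. The 71 mitochondrial ribosomal proteins, which build the ribosome of the mitochondrion, had a median change of -0.20, with 60 lower and 11 higher. Of these 0 passed an adjusted p of 0.05 in limma, and 4 were lower at an unadjusted p under 0.05 (all probe sets, 3.43%), or 27 with the replicate block (all probe sets, 7.96%). Mrps15 (-0.53), Mrpl55 (-0.56) and Mrpl35 (-0.51) had the smallest p, with an adjusted p of 0.563 for Mrps15. Ribosome assembly factors had a median of -0.05 (68 of 101 lower, 11 of them at an unadjusted p under 0.05 with the block), and RNA polymerase I subunits and factors had -0.01 (11 of 19 lower, Znrd1 at -0.66 with adjusted p = 0.835). Translation factors and other TOP mRNAs had 0.01 (12 of 22 higher, Snhg12 at 0.37 with adjusted p = 0.716), and the mTOR, Larp1 and Myc group had 0.00 (10 of 19 higher, Rps6kb2, an S6 kinase, at -0.50 with adjusted p = 0.775). Targets of p53 had 0.21 (18 of 21 higher, among them Ei24 at 0.27 and Ercc5 at 0.28), and 8 of the 21 were higher at an unadjusted p under 0.05 with the block, as were 8 of the 38 fibroblast markers, against 6.91% of all probe sets. Fau had a change of -0.11. None of these lists was compared with the ribosomal proteins by a test.

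**Figure D3:**
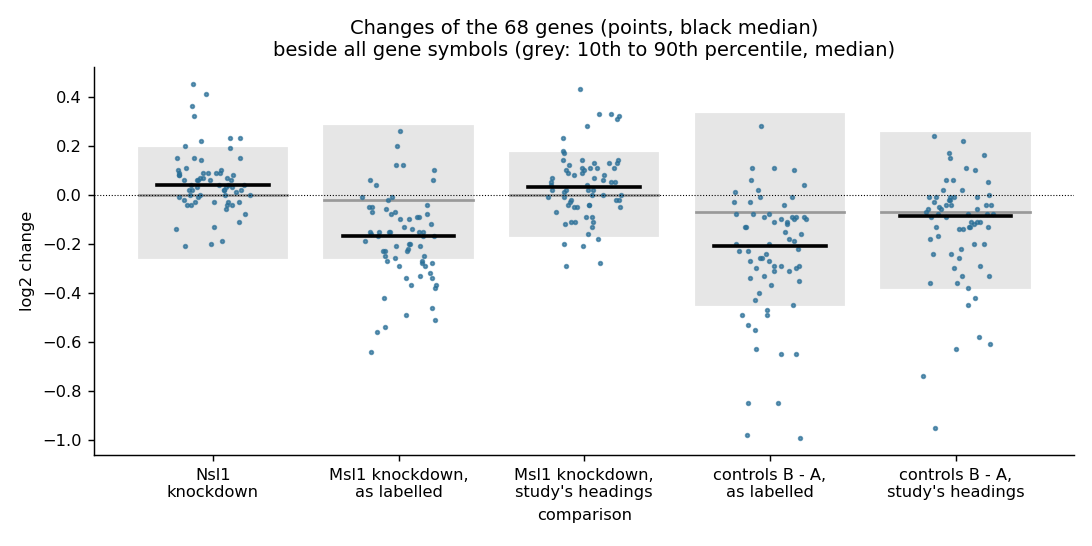
Log2 change of each of the 68 genes (points, black line the median) in 5 comparisons, beside the 10th to 90th percentile (grey box) and median (grey line) of all 22180 gene symbols. The member medians are 0.04, -0.17, 0.03, -0.21 and -0.09 from left to right.

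The second comparison asked the same of Msl1 depletion, and its answer turned on the labels. As labelled, 60 of the 68 genes were lower in shMsl1_A than in shcontrol_A, with a median change of -0.17 beside 0.00 over all probe sets. All 23 small subunit genes were on the lower side (median -0.23) and 26 of 32 large subunit genes were (median -0.14). No gene passed an adjusted p of 0.05 (smallest adjusted p = 0.622, as for 0% of all probe sets), and 4 were lower at an unadjusted p under 0.05 (5.88%, against 2.92% of all probe sets). On 13 genes (19.1%, against 5.78% of all probe sets) all 3 arrays labelled shMsl1_A were below all 3 labelled shcontrol_A. With the groups as the study heads its table, 41 genes were higher and 27 lower and the median was 0.03, and without the 2 arrays it was -0.11. Leaving out the array labelled shMsl1_A 1 alone gave 13 genes called lower (19.1%, against 6.02% of all probe sets) and a median of -0.27. That left the arrays labelled shMsl1_A 2 and 3 as the knockdown group. They had the low values described above, and the study heads the former as a control. The count is therefore no test of Msl1 depletion.

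Rps12 and Rps19 show how the size of the change hung on these arrays. Rps12 (17239744), of the small subunit, read 11.83, 11.91 and 11.85 in the labelled controls and 11.68, 11.39 and 11.38 in the labelled knockdown. The labelled groups did not overlap, with a change of -0.38 ± 0.11 (SE; adjusted p = 0.622). With the study's headings the groups overlapped and the change was -0.04. Rps19 had 11.87, 11.74 and 11.68 against 11.66, 11.27 and 11.34, a change of -0.34 ± 0.13 (SE; adjusted p = 0.622) as labelled and of -0.02 with the study's headings. Its probe set on its own chromosome (17475112) gave 0.05 and 0.02. Rps25 and Rps23, the other 2 with an unadjusted p under 0.05, had changes of -0.27 and -0.42 as labelled and of -0.18 and -0.16 with the study's headings.

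With the study's headings no gene was called (smallest adjusted p = 1.00), nor was any of the 41345 probe sets. The changes ran from -0.29 to 0.43, and 63 of the 68 intervals lay within -1 and 1. Within the 3 replicas the median difference was 0.01, 0.00 and 0.06, with 37, 35 and 49 genes higher. With the replicate number as a block in addition, 4 genes were higher at an unadjusted p under 0.05 (5.88%, against 3.53% of all probe sets). These were Rpl39l at 0.43 (adjusted p = 0.585), Rps20 at 0.33 (adjusted p = 0.620), Rps16 at 0.32 (adjusted p = 0.595) and Rps18 at 0.28 (adjusted p = 0.624). In the same fit 29 of the 38 fibroblast markers were on the lower side (median -0.18), 13 of them at an unadjusted p under 0.05, against 4.29% of all probe sets, and their part in the ribosomal protein values was not tested. Rpl39l had signals of 7.90, 7.88 and 6.88 on the arrays that the study heads as controls and of 8.37, 8.13 and 7.46 on those it heads as knockdown, higher in each replica but overlapping as groups. FCROS with these headings called Rpl39l, Rps15, Rps16 and Rps18 higher, beside 962 of all 41345 probe sets. As labelled it called Rpl39l lower, beside 559 of all probe sets, and no other member.

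The other ribosome genes had no called member under the study's headings either. The median change was -0.02 for the mitochondrial ribosomal proteins (30 of 71 higher), -0.04 for assembly factors (30 of 101 higher, Pno1 at -0.56 and Rrp15 at -0.36), 0.05 for RNA polymerase I, 0.00 for translation factors and other TOP mRNAs, -0.03 for the mTOR, Larp1 and Myc group and -0.05 for p53 targets. As labelled the assembly factors and mitochondrial ribosomal proteins had medians of -0.23 and -0.25, p53 targets 0.25 and fibroblast markers 0.40.

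The effects of the 2 knockdowns were compared in a fit of all 12 arrays. As labelled, the Nsl1 effect exceeded the Msl1 effect on 61 of 68 genes, by a median of 0.21, and no gene was called (smallest adjusted p = 0.496), against 0.00967% of all probe sets called. At an unadjusted p under 0.05, 3 were higher (4.41%, against 2.54%), namely Rps14 at 0.49 (0.19 to 0.80), Rps27 at 0.66 (0.01 to 1.31) and Rplp2 at 0.31 (0.02 to 0.60). With the study's headings the median was 0.01, with 36 genes higher and 32 lower. No gene was called under that grouping either (smallest adjusted p = 1.00), nor was any of the 41345 probe sets.

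The last comparison set the control groups of the 2 experiments, which had the same non-target shRNA, against each other, and by limma it alone gave called members with all arrays as labelled. FCROS as labelled called no member here, and 31 higher and 94 lower of all 41345 probe sets. It scales its statistic by the spread within each comparison, so its counts cannot be set against those of limma. This comparison shares its arrays with the knockdown comparisons. Of the 68 genes, 60 were lower in shcontrol_B than in the arrays labelled shcontrol_A, with a median of -0.21 beside -0.03 over all probe sets, and 26 were lower at an unadjusted p under 0.05 (38.2%, against 17.5% of all probe sets). On 28 genes (41.2%, against 22.0%) the groups did not overlap and shcontrol_B was lower. Only 6 were called lower at an adjusted p of 0.05 (8.82%, against 3.38%) and 0 higher. The groups were made in separate experiments, so any batch and the experiment cannot be told apart. The fibroblast markers were higher in shcontrol_B (median 0.59, 34 of 38) and the ES cell markers lower (median -0.27, 13 of 15), and their part in this difference was not tested.

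The 6 called genes belong to both subunits. Rpl38, a large subunit protein known in the mouse for its role in translating Hox mRNAs, had signals of 12.43, 12.44 and 12.42 in shcontrol_A and of 11.85, 11.68 and 11.82 in shcontrol_B, a change of -0.65 ± 0.08 (SE; adjusted p = 0.0288). Rps3, at the mRNA entry of the small subunit, had 11.94, 11.88 and 11.91 against 11.31, 11.34 and 11.12, a change of -0.65 ± 0.09 (SE; adjusted p = 0.0288). Rps29, of the small subunit, had 6.48, 6.88 and 6.51 against 5.71, 5.70 and 5.53, a change of -0.98 ± 0.13 (SE; adjusted p = 0.0288). The latter signals were within or below the range of the array medians, so no level relative to shcontrol_A is given. In these 3 genes the control groups did not overlap, and the shNsl1_B arrays lay with shcontrol_B, at 12.01 or below for Rpl38, 11.48 or below for Rps3 and 5.89 or below for Rps29. Rps13 (7.13, 7.06 and 6.93 against 6.53, 6.07 and 5.95) had a log2 change of -0.85 (adjusted p = 0.0420). Rpl27a (7.37, 6.92 and 7.44 against 6.50, 6.47 and 6.20) had a log2 change of -0.85 (adjusted p = 0.0430). The testis paralog Rpl10l (6.83, 6.98 and 6.97 against 6.40, 5.80 and 5.62) had a log2 change of -0.99 (adjusted p = 0.0472). Its shcontrol_B signals of 5.80 and 5.62 were close to the array medians. On the array labelled shNsl1_B 1, Rps13 had a signal of 7.38, above all controls of experiment A, and Rpl10l had 6.90, among them.

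**Figure D4:**
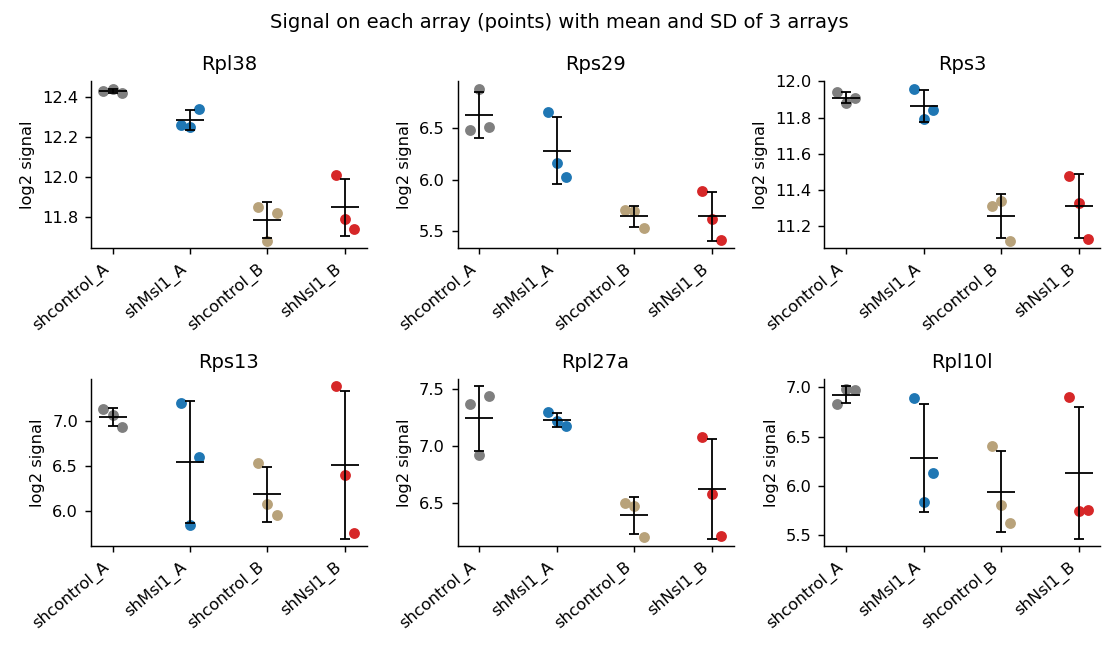
Log2 signal of the 6 genes called lower between the control groups on every array (points), with the mean and SD of 3 arrays, by labelled group. Rpl38, Rps3 and Rps29 separate experiment A from experiment B, while in Rps13 and Rpl10l single knockdown arrays spread over the whole range.

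These calls were lost when most single arrays were left out, while the 6 changes kept their direction. In these fits the changes ran from -0.68 to -0.60 for Rpl38, -0.69 to -0.59 for Rps3 and -1.05 to -0.85 for Rps29. They ran from -1.02 to -0.74 for Rps13, -1.01 to -0.76 for Rpl27a and -1.22 to -0.83 for Rpl10l. Leaving out any one array other than shcontrol_B 1 left 0 called, with smallest adjusted p values of 0.0772 to 0.118 in limma. Leaving out shcontrol_B 1 gave 16. The share of all probe sets called in these fits is not given, so the counts may not be particular to the ribosomal proteins. The median change stayed between -0.25 and -0.18. With the study's headings limma called no member and 0 of all 41345 probe sets. At an unadjusted p under 0.05, 6 members were lower (8.82%, against 11.6% of all probe sets). FCROS called Rpl27a, Rps29 and Rps3 lower, beside 533 of all 41345 probe sets. The median was -0.09 beside -0.04 over all probe sets. Rpl27a (-0.95, adjusted p = 0.0634), Rps3 (-0.63, adjusted p = 0.0705), Rpl38 (-0.58, adjusted p = 0.0738) and Rps29 (-0.74, adjusted p = 0.0744) kept their direction. Rps13 and Rpl10l then had changes of -0.45 and -0.61 with intervals that include 0. Rpl34 (-0.63, adjusted p = 0.0507) and Rps7 (adjusted p = 0.0521) were just outside the threshold as labelled, and Rpl10l (adjusted p = 0.0472) was just inside it. Rpl37 was the only member with all shcontrol_B arrays higher (0.28, adjusted p = 0.251).

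Of related genes, some were called lower in shcontrol_B as labelled, where 3.38% of all probe sets were lower and 2.03% higher. Of the mitochondrial ribosomal proteins 13 of 71 were called lower (median -0.41, Mrps15 at -0.78 and Mrpl35 at -0.89), and of the assembly factors 5 of 101 (median -0.26, Surf6 at -0.61 and Rpf2 at -0.70). Of the RNA polymerase I genes 1 was called lower (Znrd1 at -0.79), of the translation factors and other TOP mRNAs 2 were (Eif3m at -0.65 and Eif3e at -0.62) while Tpt1, a growth-related TOP mRNA, was called higher at 0.37, and of the mTOR, Larp1 and Myc group 2 were called lower, the cap-binding protein gene Eif4e at -0.65 and Yy1 at -0.43. With the study's headings none of these was called, nor was any of the 41345 probe sets.

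The spread of the members differed with the brightness of the probe set. The 18 genes with a mean signal over 12 had a median SD within groups of 0.12, and the 29 genes with a mean under 9 had 0.27, beside 0.20 for all members and 0.18 for all probe sets. The smallest SDs were those of Rps6, Rpl21, Rpl29, Rps9 and Rpl41, from 0.03 to 0.06, and the largest were those of Rps13, Rpl10l, Rps15, Rpl39l and Rps4l, from 0.44 to 0.55. Rps15, of the small subunit, had signals from 6.64 to 7.95 over the 12 arrays. Its lowest value lay on shNsl1_B 3 and its highest on the array labelled shcontrol_A 2. Rps4l ran from 8.70 on shNsl1_B 3 to 9.79 on shNsl1_B 1.

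For 14 genes a bright probe set among another chromosome's probe sets could be set beside one of the same gene on its own chromosome. After Nsl1 KD the former had changes of -0.04 to 0.08 and the latter of -0.06 to 0.30, with opposite signs in 3 genes. Between the control groups the former had changes of -0.43 to 0.02 and the latter of -0.49 to 0.75, with opposite signs in 9 of 14. Rpl9, for example, had a change of -0.03 (adjusted p = 0.865) on its chosen probe set and of 0.75 (adjusted p = 0.0430) on the other. The pairs of values were -0.43 and 0.18 for Rpl13, -0.30 and 0.23 for Rpl27, -0.11 and 0.37 for Rpl7a and -0.27 and 0.09 for Rps28. The sign of the change in these 5 genes between the control groups therefore differed between probe sets. Their own-chromosome probe sets were dimmer, with mean log2 signals of 6.06 (Rpl9), 7.22 (Rpl13), 7.64 (Rpl27), 7.48 (Rpl7a) and 7.70 (Rps28). The others had means of 10.42 or more. The part of this brightness in the opposite signs was not tested.

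**Figure D5:**
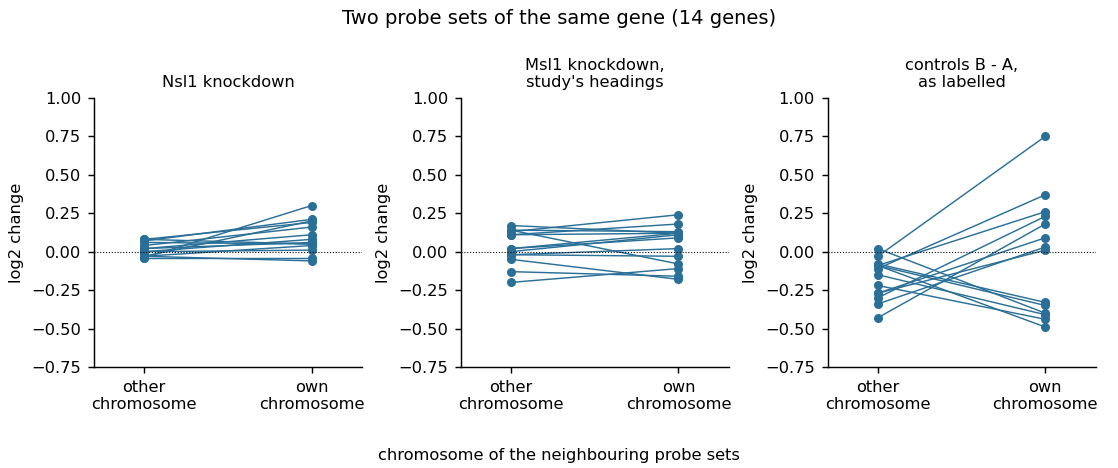
Log2 change of 14 genes on a probe set among neighbours of another chromosome and on one among neighbours of the gene's own chromosome, joined by a line, in 3 comparisons. Between the control groups 9 of the 14 lines cross 0.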

How the data were processed

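The authors scanned 12 arrays and ran RMA with its defaults in Affymetrix Expression Console 1.1, and the table they deposited holds a log2 signal per array for 41345 probe sets. RMA makes the distributions of the arrays alike, so a shift shared by most genes would not be seen. No source used here names the annotation's build. Symbols came from the platform annotation, in which 23521 probe sets had 1 symbol, 1820 several and 16004 none.

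Groups were compared by limma 3.58.1 (R 4.3.3) within each experiment, with two-sided tests and Benjamini-Hochberg adjustment over all probe sets at a threshold of 0.05, and the difference between the effects was fitted on all 12 arrays. Intervals are 95% intervals of the fit. FCROS was rewritten with 9 pairs, a trim of 0.25 and limits from 0.025 to 0.975, and its calls are not adjusted for multiple tests. It scales the rank statistic by its spread over all probe sets in each comparison. Its number of calls therefore cannot be set against that of limma. For both knockdowns it called more probe sets than the paper counts genes. The fits were tested on simulated data. Alternatives covered scaling, filters, the probe set, the labels, the replicate block and single arrays.

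Same-numbered arrays of experiment B deviated together (correlations of 0.767, 0.326 and 0.704, each over 0.1), so the numbers were taken to pair them. In experiment A the correlations were 0.045, -0.226 and 0.21 as labelled and 0.416, 0.422 and 0.814 with the study's headings.

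The members and gene lists were chosen with earlier results of these data known. Named genes are those given by role, the paralogs, up to 5 per direction with the smallest p or without overlap in each comparison, the 5 largest and smallest SDs, up to 5 genes whose probe sets disagree, and up to 3 per list. Sequences are from RefSeq (GRCm38.p6).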

Additional observations from a re-analysis of the deposited data

How the results depend on the processing

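The number of arrays limits the precision, and no member was called after Nsl1 KD under any limma alternative tried. At an unadjusted p under 0.05 the main fit had 2 members, and the alternatives without the block had 1 to 3. FCROS called 1. Leaving out single arrays moved the median change after Nsl1 KD between -0.09 and 0.12, with 0 called throughout. The block changed no call there.

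As labelled, the Msl1 comparison gave 0 called, or 1 with FCROS and 4 with FCROS and the study's headings. Its median of -0.17 became 0.03 with those headings, with or without the block, and 0.04 with them and probe sets on the gene's own chromosome. Leaving out single arrays gave medians of -0.27 to -0.13 and 0 to 13 called, the 13 without shMsl1_A 1. That fit kept the low arrays labelled shMsl1_A 2 and 3 as the knockdown group. The replicate block as labelled left the median at -0.17 and 0 called. Rps19 reversed to 0.05 on its own chromosome's probe set, or 0.02 with the headings too.

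The difference between the effects fell from 0.21 to 0.01 with the study's headings, with or without the block, and to 0.06 with probe sets on the own chromosome too. Leaving out single arrays gave 0.09 to 0.32 and 0 called.

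Between the control groups the 6 called became 0 with only probe sets of mean over 6, with the study's headings or with FCROS. They became 3 with FCROS and the headings, 10 with only probe sets of 1 symbol, and 0 to 16 without single arrays. The FCROS counts are not comparable with those of limma. The median of -0.21, beside -0.03 over all probe sets, became -0.28 with each array centred, beside -0.1 over all probe sets. It became -0.09 with the headings, beside -0.04, and lay between -0.25 and -0.18 without single arrays. Probe sets on the own chromosome, like all alternatives with them and FCROS with the headings chosen after seeing the data, gave 8, of which 1 was higher. The cause of these differences was not tested. For the filters, the probe set choice and single arrays the share of all probe sets called is not given. These counts alone therefore cannot show a property of the ribosomal proteins.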
